A study of Mus musculus with 46 samples.

Results

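The proteasome subunit genes described here are the 50 genes, of 31854 in the RNA count table, whose symbol begins with Psm, a letter from a to g and a digit. They were read in 11 AgRP and 6 POMC libraries of TRAP RNA, in which mRNA on GFP-tagged L10a ribosomes is pulled down from the cells that express Cre. The AgRP libraries came from male NuTRAP mice crossed to AgRP-IRES-Cre, aged 6 to 11 weeks, with the arcuate nuclei of 4 mice pooled in each sample. There were 3 libraries from fed mice given PBS, 4 from mice fasted for 18 to 20 h and given PBS, and 4 from mice fasted in the same way and given leptin at 5 mg/kg, all taken 3 h after the injection. The POMC libraries came from male NuTRAP mice crossed to POMC-IRES-Cre, with 2 libraries each from fed, overnight-fasted and fasted leptin-treated mice. Their age, dose, timing and pooling were not given in the sources used here. All mice of these RNA libraries carried the tagged ribosome and tagged nuclear membrane cassette, and the AgRP and POMC libraries differ in the Cre line as well as in the neuron. The ATAC-seq libraries of the 3 states came from the same AgRP cross, with the same ages, pooling, fast, leptin dose and timing. The ATAC-seq libraries of GFP-positive and GFP-negative nuclei also came from male mice of that cross, per the paper. The IRF3 CUT&RUN sample came from mice of the IRF3-2D line, which carry a constitutively active IRF3 allele. The CTCF CUT&RUN sample is a separate sample of AgRP neurons, whose label does not name the IRF3-2D line.

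AgRP neurons are the hunger neurons of the arcuate nucleus: fasting raises their activity and leptin, the satiety hormone from fat, lowers it. The neighbouring POMC neurons act in the opposite direction. The 26S proteasome is the protease that degrades proteins tagged with ubiquitin in every cell. Its 20S core is a barrel of alpha and beta rings that holds the catalytic beta subunits. A 19S cap on the barrel recognises ubiquitin, unfolds the substrate with a ring of ATPases and removes the ubiquitin through a lid subunit. Dedicated chaperones assist the assembly of both parts, immunoproteasome subunits can replace the catalytic ones, and separate activators can cap the barrel in place of 19S. The transcription factor NFE2L1 is known to raise the subunit genes together when proteasome activity is short, through antioxidant response elements.

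By role, 14 of the 50 genes encode the 20S core used in most tissues (Psma1 to Psma7 and Psmb1 to Psmb7), 17 encode 19S subunits, 7 encode assembly chaperones (Psmd5, Psmd9, Psmd10 and Psmg1 to Psmg4), and 4 encode inducible or tissue-restricted beta subunits (Psmb8 to Psmb11). Another 6 encode activators or an inhibitor (Psme1, Psme2, Psme2b, Psme3, Psme4 and Psmf1), Psma8 encodes the alpha subunit of the testis, and Psmc3ip shares the name pattern only, since it encodes a partner protein in meiotic recombination. In AgRP libraries 46 of them had a mean over 1 CPM (the count scaled to library depth) and were tested, and Psma8, Psmb9, Psmb11 and Psmc3ip were not. In POMC libraries 45 were tested, without Psme2b.

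Depth was 25581041 to 54511107 counts per AgRP library and 30704075 to 53217053 per POMC library, and the 50 genes took 0.206% to 0.410% of them. The labelled neurons were checked with marker genes. AgRP neuron markers summed to 1720 CPM or more in every AgRP library against at most 202 in POMC libraries, and POMC neuron markers to at least 1688 CPM in POMC libraries against at most 231 in AgRP libraries. Astrocyte markers summed to 2853 to 26808 CPM over the AgRP libraries, so glial RNA was present in all of them. Libraries with the same replicate number deviated together in the AgRP RNA, and number 3 was the highest and number 4 the lowest library for most proteasome genes in each state. The numbers therefore entered the model of the AgRP libraries as a block in an alternative fit, whose values are given beside the fit on state alone.

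In fed AgRP libraries the subunits of one particle were not at one level. Levels were compared as CPM per kilobase of the gene model in the count table. Psmb4, a structural beta subunit, was the highest at 195 ± 35 CPM per kb (SD, n = 3), followed by Psmb1 at 119 ± 16.1 and the alpha subunit Psma6 at 87.1 ± 8.5. The 20S core spanned a 15.8-fold range down to Psmb3 at 12.4 ± 1.6 CPM per kb. The 19S subunits lay within a 4.35-fold range, from Psmd11 at 13.1 ± 1.2 to Psmd2, the scaffold of the base, at 57.2 ± 5.8 CPM per kb. Most neighbours in the middle of this order, such as Psmd2, Psmc6, Psmc5 and Psmd1 between 57.2 and 51.2 CPM per kb, differed by less than their SDs.

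**Figure D1:**
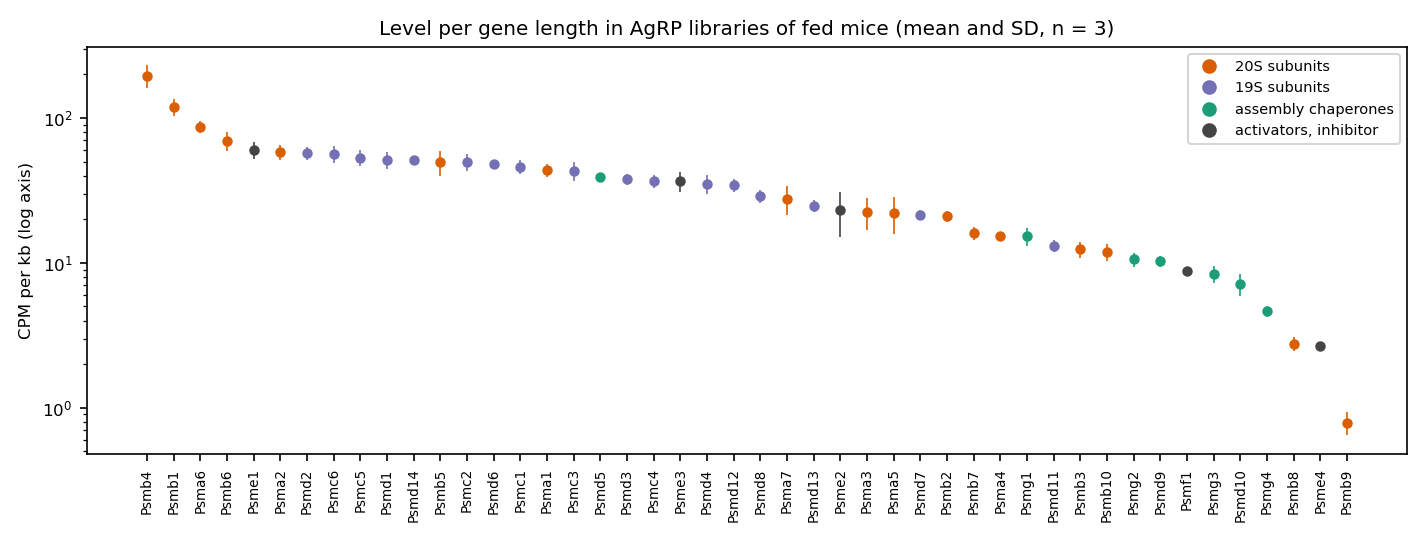
Level of 46 proteasome genes (the tested genes other than Psme2b, and Psmb9) in the 3 AgRP libraries of fed mice, as CPM per kilobase of gene model on a log axis, ordered from highest to lowest, with the mean as a point and the SD as a bar. Psmb4 stands highest at 195 CPM per kb, and the chaperones other than Psmd5, Psme4 and the inducible Psmb8, Psmb9 and Psmb10 make up most of the low end.

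Most assembly chaperones were low in the order, at 4.65 to 39.1 CPM per kb with Psmg4 lowest, and their median of 10.2 compares with 35.7 for the 20S core and 43.4 for the 19S subunits. Psmd5, the highest, lay above the 20S median. Gene model length in the count table is not the length of the transcript in use, so a gene whose model holds extra exons is placed too low.

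Of the 3 catalytic subunits, Psmb5 and Psmb6 were far above their inducible counterparts and Psmb7 was less so. Psmb6, the caspase-like subunit, stood at 69.6 ± 10.4 CPM per kb, Psmb5, the chymotrypsin-like subunit, at 49.5 ± 9.6 and Psmb7, the trypsin-like subunit, at 16.1 ± 1.6. Each has an inducible counterpart that takes its place in the immunoproteasome. Psmb8 made up 5.35% ± 0.53 of the summed per-length level of Psmb5 and Psmb8 in fed AgRP libraries (SD, n = 3), and Psmb9 made up 1.14% ± 0.29 of that of Psmb6 and Psmb9. Psmb10, at 11.95 ± 1.6 CPM per kb, made up 42.6% ± 0.98 of the pair with Psmb7. Without the scaling to length, Psmb10 was at 15.2 CPM and Psmb7 at 51.9 CPM, so this share depends on the lengths of the gene models. The Psmb8 share was 5.94% ± 0.88 in fasted and 6.27% ± 0.40 in leptin-treated AgRP libraries (n = 4 each). It ran from 4.93% to 5.95% in fed, 4.87% to 6.86% in fasted and 5.73% to 6.70% in leptin-treated libraries. The ranges overlapped, the leptin mean lay above the fed range, and the difference in share was not tested. In the 2 fed POMC libraries the share was 2.34% and 3.72%. Psmb9 was under 1 CPM in every AgRP library, and Psmb11, the thymus subunit, was at 0 counts in some AgRP libraries.

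Fasting was compared with feeding in AgRP neurons to learn what hunger does to the set. Nearly all core subunits had higher fitted values in the fasted libraries, most of them by a modest amount, while the chaperones were close to level. The sum of the 14 genes of the 20S core was 853, 1086 and 872 CPM in fed libraries 1, 3 and 4, 1124, 1293, 1425 and 1009 in fasted libraries 1 to 4 and 987, 1334, 1419 and 1031 in leptin libraries 1 to 4. The sum of the 17 genes of the 19S cap was 1409.8, 1592 and 1323 CPM in fed, 1871, 1929.8, 2121 and 1507 in fasted and 1787, 1989, 2114 and 1531 in leptin libraries. Fed library 3 was above fasted library 4 in both sums, so the groups overlap, yet every fasted library was above the fed library of its own number.

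Within numbers 1, 3 and 4 the fasted-to-fed log2 ratio of the 20S sum was 0.40, 0.39 and 0.21, and that of the 19S sum was 0.41, 0.41 and 0.19. The chaperone sum was 159, 165 and 149 CPM in fed and 173, 176, 177 and 149 CPM in fasted libraries, with log2 ratios of 0.12, 0.11 and 0.0027 in the same pairs. The rise of the 20S and 19S sums was smallest in number 4.

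**Figure D2:**
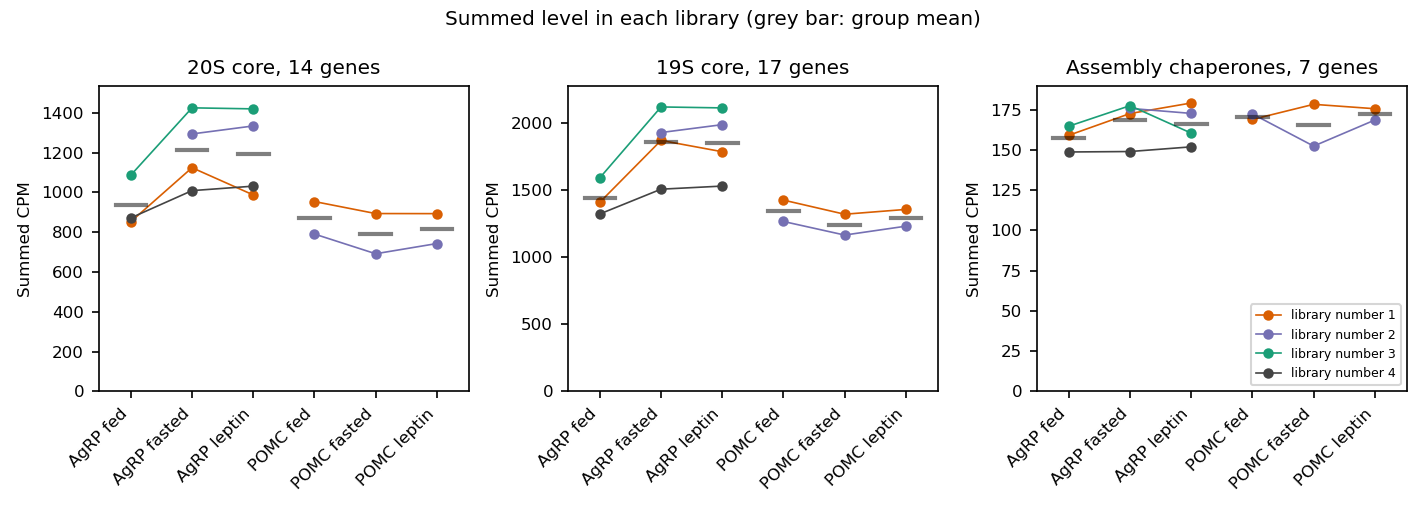
Summed CPM of the 20S core (14 genes), the 19S subunits (17 genes) and the assembly chaperones (7 genes) in each AgRP and POMC library, with libraries of one number joined by a line and the group mean as a grey bar. In AgRP the 20S mean goes from 937 CPM in fed to 1213 in fasted libraries while the chaperone mean goes from 157 to 169, and both POMC numbers are lower in the fasted than in the fed library for 20S and 19S.

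By the fit on state alone, 43 of 46 genes had a log2 fold change above 0, against 53.1% of the 13401 genes tested. Their median was 0.33 and that of all genes tested 0.017. Only Psme4 passed both thresholds (false discovery rate, FDR, under 0.05 by edgeR's quasi-likelihood test with Benjamini-Hochberg adjustment, and an absolute log2 fold change over 0.5), where 3.89% of all genes passed in either direction and 2.82% as higher. At the FDR alone 3 genes rose, where 3.81% of all genes did, and 22 were higher at an unadjusted p under 0.05, where 12.4% were. With the replicate number in the model, 3 genes rose past both thresholds (Psme4, Psmb3 and Psmc3), where 4.40% of all genes did. At the FDR alone 30 rose and none fell, against 15.2% and 9.30% of all genes. Without the 3 libraries of number 1 the fit on state alone called 0 and the blocked fit 24 of 45 at the FDR alone. Without those of number 4 the counts were 3 and 31 of 46, and with library size in place of TMM they were 0 and 24. Over all genes, calls on state alone were 378 higher and 143 lower. They were 39 and 13 without number 1, 404 and 305 without number 4, and 148 and 90 with library size. Blocked rises at the FDR alone were 2036 over all genes, 1129 without number 1 and 1851 without number 4. The share over all genes is not given here for the blocked fit with library size, so its count of 24 has no background beside it.

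The genes that rose with the number in the model were spread over the particle by role. In the 20S core 13 of 14 rose, with a median log2 fold change of 0.34 over the 14, and in the 19S cap 16 of 17 rose, with a median of 0.32. All 6 ATPases of the base (Psmc1 to Psmc6) were among them, as were Psmd1, Psmd2 and the ubiquitin receptor Psmd4, and 7 of 8 lid genes, Psmd14, the deubiquitinase of the lid, included. None of the 7 chaperone genes reached the FDR, with 1 (Psmg4) at an unadjusted p under 0.05 and a median of 0.095. The 2 core genes that did not pass were Psmb5 (0.19, FDR 0.05) and Psmd7 (0.15, FDR 0.213). A fasted library was higher than the fed library of its number in all 3 pairs for 40 of 46 genes, where 29.8% of all genes were, and the exceptions were Psmd5, Psmd7, Psmd10, Psme1, Psme2b and Psmg3. Every fasted library was above every fed library for 10 of 46, where 9.81% of all genes were, and these were Psma1, Psma4, Psmb2, Psmb3, Psmb8, Psmd3, Psmd11, Psmd14, Psme4 and Psmf1. The difference between core subunits and chaperones was not itself tested.

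The fitted values in that model varied within each role. The 7 alpha ring genes lay between 0.26 (Psma6) and 0.42 (Psma1), and the 4 structural beta genes between 0.21 (Psmb1) and 0.60 (Psmb3). The 6 ATPases lay between 0.22 (Psmc6) and 0.52 (Psmc3), with Psmc4 at 0.48 (SE 0.065). Psmd1, Psmd2 and Psmd4 lay between 0.32 and 0.35, and the 8 lid genes between 0.15 (Psmd7) and 0.46 (Psmd3). SEs of these genes were close to 0.1 or under, so most neighbours in each range do not differ beyond their error, while the ends of the structural beta and lid ranges lie several SEs apart. The chaperones ran from −0.061 (Psmd10, also known as gankyrin) to 0.34 (Psmg4, SE 0.14).

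**Figure D3:**
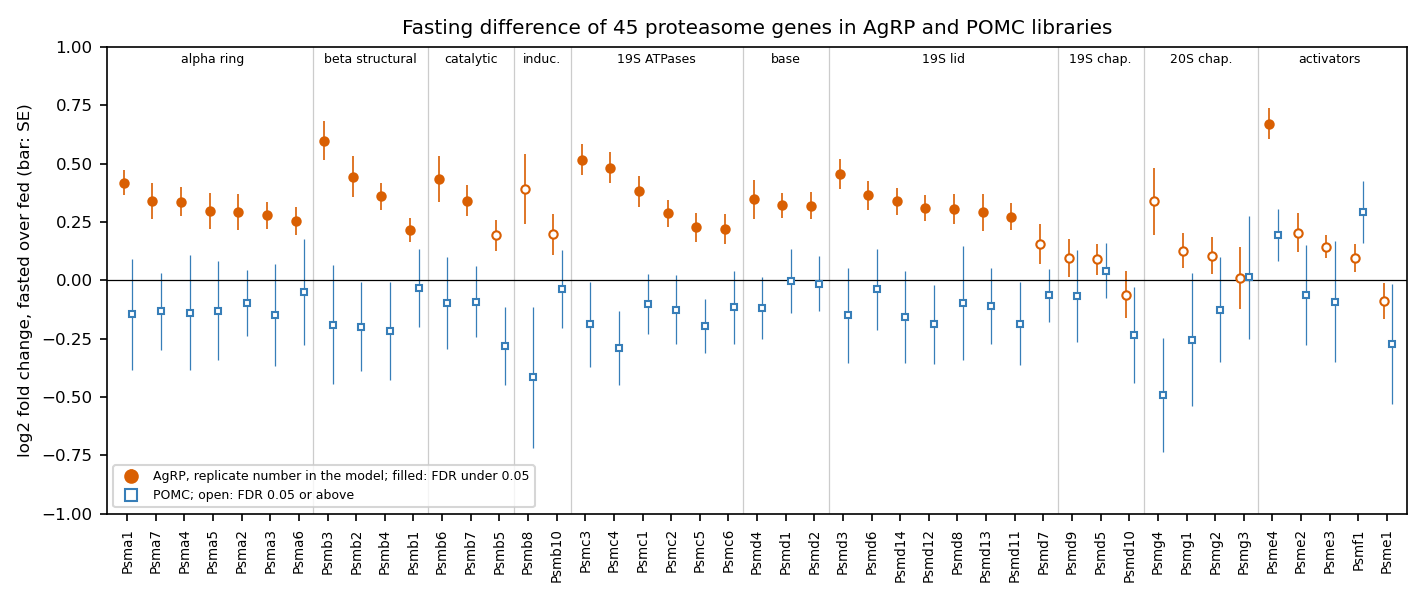
Fitted log2 fold change of fasted over fed libraries for 45 proteasome genes, by role, with SE bars; circles are AgRP with the replicate number in the model, filled where the FDR was under 0.05, and squares are POMC. The filled circles cover 29 of the 31 core genes and Psme4, none of the chaperones is filled, and no POMC gene reached the FDR.

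Psme4 encodes the activator PA200, a single large protein that caps the 20S barrel without ATP or ubiquitin. It was at 32.6, 32.0 and 29.1 CPM in the fed libraries, 51.4, 46.2, 49.0 and 47.4 in the fasted and 45.3, 38.3, 39.9 and 43.0 in the leptin libraries. The 3 groups did not overlap, with fasted highest and leptin between. Fasted over fed was 0.64 on the log2 scale (SE 0.079, FDR 0.00155), and 0.67 with the number in the model (FDR 3.81e-05). It was also lower after leptin than in fasting in all 4 same-number pairs, at −0.22 on the log2 scale with the number in the model (FDR 0.0335, 1 proteasome gene lower at the FDR alone where 3.48% of all genes were) and −0.22 without it (FDR 0.23). Without the 3 libraries of number 1, that model called 0 proteasome genes as changed by leptin at the FDR alone. Over all genes it then called 296 as higher and 191 as lower, where it called 583 and 466 with all libraries. The fasting call was lost without the 3 libraries of number 1 (0.65, FDR 0.053) and with library size in place of TMM (0.59, FDR 0.053). Over all genes those fits called 39 and 148 as higher, where the fit with all libraries and TMM called 378.

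Psmb3, a structural beta subunit, had the largest fold change on state alone. It was at 20.7, 26.6 and 22.9 CPM in fed libraries 1, 3 and 4, 31.5, 39.2, 44.7 and 31.2 in fasted libraries 1 to 4 and 26, 39.9, 44.8 and 30.4 in leptin libraries 1 to 4. All fasted libraries were above all fed ones. On the log2 scale the difference was 0.66 (SE 0.19, FDR 0.0812) and, with the number in the model, 0.60 (SE 0.083, FDR 0.000362).

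Psmc3 encodes an ATPase of the 19S base. It was at 71.2, 81.4 and 60.1 CPM in fed, 106, 114, 129 and 72.6 in fasted and 94.1, 111, 122 and 75.2 in leptin libraries. Fed library 3 was above fasted library 4, and each fasted library was above the fed one of its number. The fitted log2 difference was 0.58 (FDR 0.122) on state alone and 0.52 (SE 0.067, FDR 0.00023) with the number in the model, and in that model it was just under the fold threshold without the libraries of number 1 (0.495, FDR 0.00870). The alpha subunits Psma1 and Psma4 passed the FDR in both fits with smaller fold changes. On state alone neither passed without any 1 of fasted libraries 1 to 3 or fed libraries 1 and 4, without the filter on low counts or with library size in place of TMM (FDR 0.295 and 0.382), nor did Psma4 without fed library 3. With the number in the model both passed with and without the libraries of number 1 or 4. Psma1 was at 75.6, 89.3 and 73.5 CPM in fed and 106, 105, 118 and 96.5 in fasted libraries (0.43, FDR 0.0341). Psma4 was at 27.4, 29.4 and 26.3 CPM in fed and 34.1, 36.6, 38.1 and 31.8 in fasted libraries (0.35, FDR 0.0333). Neither overlapped between fed and fasted.

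**Figure D4:**
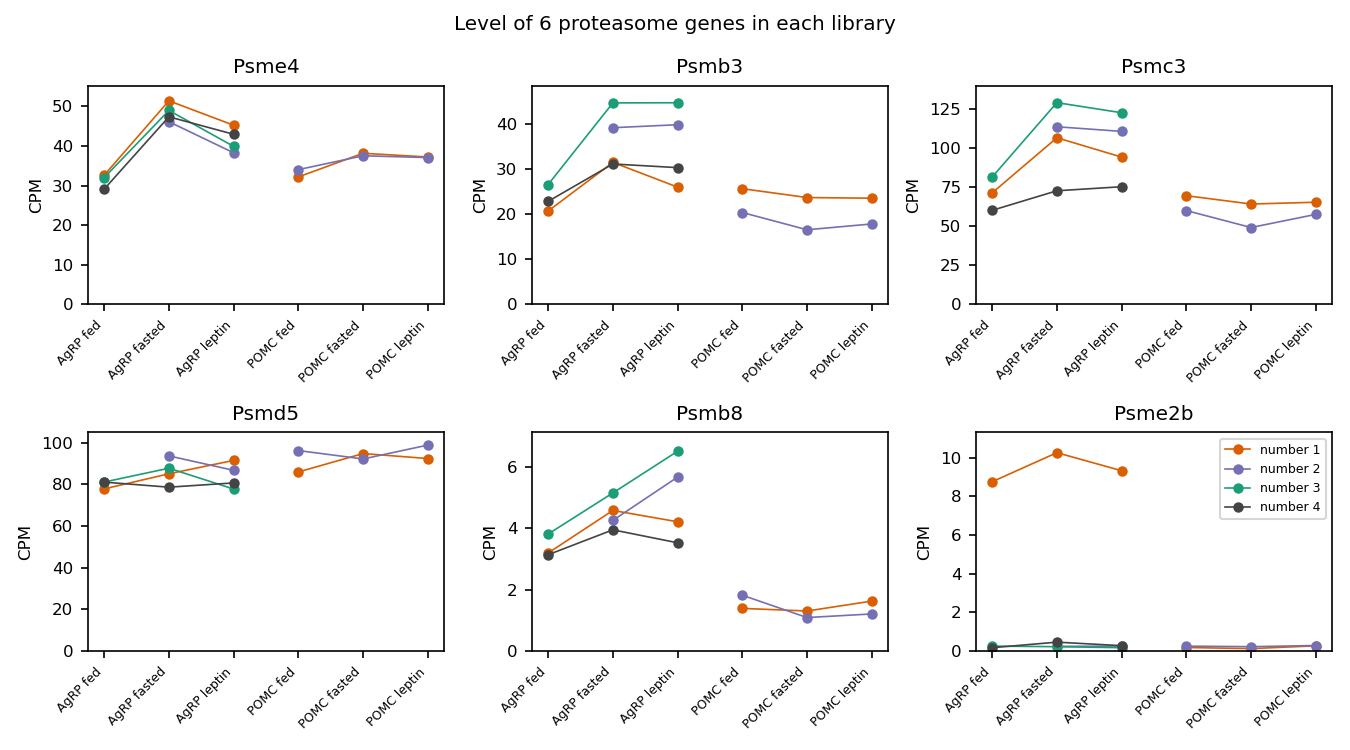
CPM of Psme4, Psmb3, Psmc3, Psmd5, Psmb8 and Psme2b in each AgRP and POMC library, with libraries of one number joined by a line. Psme4 separates the AgRP states, from at most 32.6 CPM in fed to at least 46.2 in fasted libraries; Psmd5 stays between 77.8 and 93.7 CPM in AgRP; and Psme2b is at 8.75 to 10.3 CPM in the AgRP libraries of number 1 and at most 0.451 in the others.

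The catalytic subunits hold the protease sites of the barrel. Psmb6 was at 68.9, 84.2 and 63.4 CPM in fed, 98.9, 104, 124 and 74.8 in fasted and 72.6, 109, 129 and 82.8 in leptin libraries. Psmb7 was at 50.6, 57.5 and 47.5 CPM in fed, 65.9, 74.3, 77.5 and 53.0 in fasted and 57.0, 70.2, 76.7 and 55.3 in leptin libraries. Psmb5 was at 36.0, 52.4 and 41.0 CPM in fed, 44.3, 59.3, 61.6 and 41.1 in fasted and 44.2, 60.1, 64.7 and 41.3 in leptin libraries. The fed and fasted libraries overlapped for all 3 genes, and with the number in the model Psmb6 (0.44, FDR 0.00744) and Psmb7 (0.34, FDR 0.00334) rose.

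Of the inducible subunits, Psmb8 was at 3.20, 3.82 and 3.14 CPM in fed, 4.59, 4.26, 5.16 and 3.95 in fasted and 4.22, 5.67, 6.52 and 3.53 in leptin libraries. Fasted and fed libraries did not overlap, while 1 leptin library lay within the fed range. Its log2 fold change after fasting with the number in the model was 0.39 (SE 0.15, FDR 0.079). Psmb10 was at 15, 17.3 and 13.3 CPM in fed and 17.1, 20.9, 21.2 and 13.6 in fasted libraries, with an overlap and a log2 difference of 0.20 (FDR 0.125) in that fit. Psmb9 was at 0.510, 0.665 and 0.734 CPM in fed and 0.483, 0.717, 0.539 and 0.312 in fasted libraries and was not tested.

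Among the other activators, Psme3, the nuclear PA28 gamma ring, was at 90.1, 90.0 and 116 CPM in fed and 101, 106, 102 and 122 in fasted libraries. Psme1, the alpha subunit of the cytosolic PA28 cap, was at 54.5, 67.4 and 54.1 CPM in fed and 55.8, 62.5, 67.3 and 45.8 in fasted libraries. Both overlapped between the states, and with the number in the model the log2 fold changes were 0.14 (FDR 0.058) for Psme3 and −0.087 (FDR 0.442) for Psme1. The lowest fold changes of the set on state alone were those of Psme2b (−0.19, SE 1.71), Psme1 (−0.014, SE 0.18) and the chaperone Psmd10 (−0.036, SE 0.16). Psmd10 was at 11.4, 11.6 and 8.36 CPM in fed and 12.3, 10.1, 10.3 and 7.97 in fasted libraries, which overlapped. Psmf1, which encodes the proteasome inhibitor PI31, was at 50.7, 48.6 and 47.4 CPM in fed and 53.9, 53.1, 52.3 and 50.9 in fasted libraries. These did not overlap, and in the model with the number the log2 difference was 0.096 (FDR 0.269), which did not pass.

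Psme2, the beta subunit of the PA28 cap, and its near-identical copy Psme2b could not be told apart with confidence. Psme2b was at 8.75, 0.246 and 0.163 CPM in fed, 10.3, 0.232, 0.216 and 0.451 in fasted and 9.32, 0.247, 0.164 and 0.269 in leptin libraries, so it was high in library 1 of each state only. Psme2 was at 14.8, 30.3 and 22.5 CPM in fed, 18.1, 27.3, 34.5 and 26.8 in fasted and 15.2, 30.7, 33.8 and 23.2 in leptin libraries and was lowest in the same 3 libraries. In the reference, 463 of the 746 windows of 50 bases (62.1%) in a Psme2 transcript of 795 bases also occur in Psme2b. The summed counts of both genes had a fasting log2 fold change of 0.21 (FDR 0.51) on state alone and 0.20 (FDR 0.080) with the number in the model.

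Markers of the AgRP neurons rose with fasting as well. The 7 AgRP neuron markers summed to 1720 to 2416 CPM in fed and 3028 to 6521 in fasted libraries, and with the number in the model 6 of the 7 rose at the FDR, where 15.2% of all genes did. Agrp and Npy, the neuropeptides of these neurons, are among them and are known to rise with fasting. Over the same libraries astrocyte markers summed to 3879 to 21049 CPM in fed and 2853 to 26808 in fasted, oligodendrocyte markers to 582 to 885 and 518 to 808, microglia markers to 25.1 to 44.5 and 19.5 to 42.4, tanycyte and ependymal markers to 35.4 to 74.4 and 24.1 to 118, and endothelial markers to 71.4 to 89.3 and 48.3 to 105. No marker was at 0 in any AgRP library. At the FDR in that fit 1 of 7 astrocyte, 3 of 8 oligodendrocyte, 2 of 6 tested microglia, 1 of 5 endothelial and 1 of 5 tested tanycyte markers fell, where 9.30% of all genes did. Their part in the proteasome result was not tested, and in these bulk libraries more RNA per AgRP neuron and less RNA from other cells cannot be told apart.

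Leptin after fasting was compared with fasting alone to ask whether the difference reverses within 3 h. The core sums after leptin were close to those of fasting, and Psme4 was the one gene whose leptin libraries all lay below all fasted ones, where 2.69% of all genes did so. The 20S sum averaged 1193 ± 216 CPM after leptin against 1213 ± 183 in fasting, and the 19S sum 1855 ± 255 against 1857 ± 256 (SD, n = 4 each). No gene of the 46 was called by edgeR or by DESeq2, where 1.83% of all genes were by edgeR, and 1 (Psme4, lower) had an unadjusted p under 0.05, where 4.40% of all genes were lower at that p. The median log2 fold change was −0.019 against −0.014 over all genes tested, with 18 genes above 0 and 28 below, where 45.4% of all genes were above 0. Apart from Psme2b the fitted values lay between −0.22 and 0.15, with SEs up to 0.29 on state alone and 0.12 with the number in the model. The sign of the median depended on the libraries, from −0.092 without fasted library 4 to 0.058 without fasted library 3.

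Against fed mice, the leptin libraries had their own values, read against the same 3 fed libraries. The median of the 46 genes was 0.33 against 0.0094 over all genes tested, with 0 called on state alone (5.48% of all genes), 4 higher at the FDR alone (5.80%) and 21 at an unadjusted p under 0.05 (13.8%). With the number in the model 2 were called, where 8.57% of all genes were. These were Psmb3 (0.53, FDR 0.000664) and Psmb8 (0.56, FDR 0.0137), and 35 rose at the FDR alone where 17.5% of all genes did. Among the 35 were 13 of 14 genes of the 20S core, 16 of 17 of the 19S cap and 2 of 7 chaperones (Psmg1 and Psmg4). Without leptin library 1, leptin library 4 or fed library 3, 4, 5 and 1 genes were called on state alone. Over all genes those fits called 393 as higher and 151 as lower, 613 and 255, and 345 and 115. With all libraries the calls over all genes were 500 and 235.

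**Figure D5:**
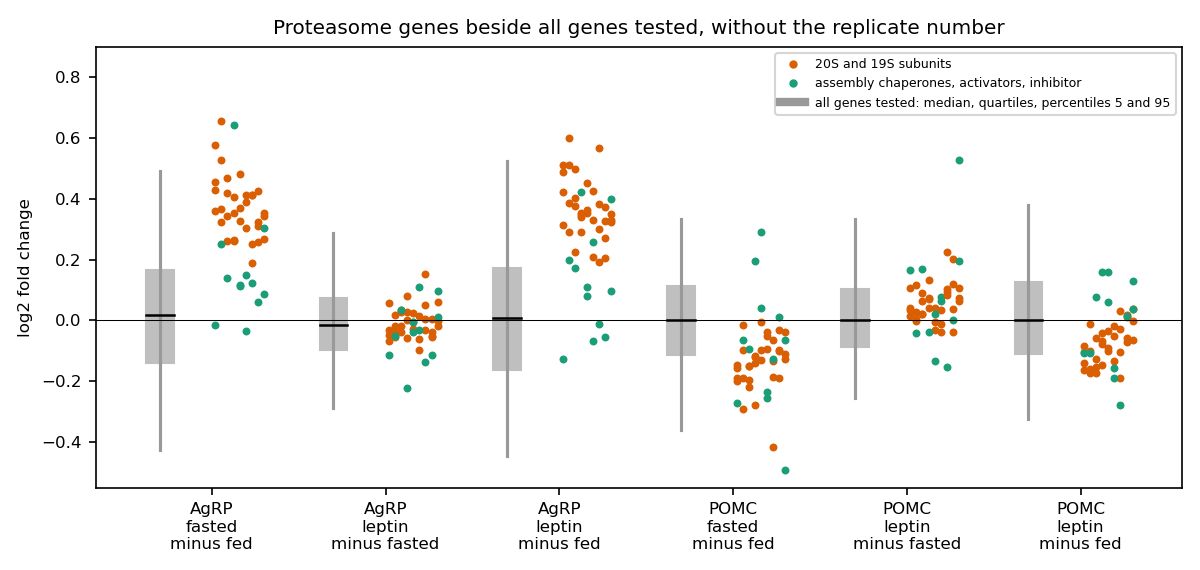
Fitted log2 fold changes of the proteasome genes other than Psme2b in 6 comparisons, on state alone, with the 20S and 19S subunits in orange and the others in green. The grey box and line are the quartiles and the percentiles 5 to 95 of all genes tested, and the AgRP medians were 0.33, −0.019 and 0.33, and the POMC median of fasted minus fed was −0.13.

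In POMC neurons, which fasting quiets, no gene of the set was called and most fitted values were below 0. The 20S sum was 954 and 790.5 CPM in fed, 893 and 691 in fasted and 893 and 743 in leptin libraries 1 and 2. The 19S sum was 1426 and 1267 CPM in fed, 1321 and 1165 in fasted and 1357 and 1232 in leptin libraries. Each fasted library was below the fed library of its number, and the groups overlapped. No gene of the 45 was called by edgeR or DESeq2. Over all 13412 genes edgeR called 0 (0%), and DESeq2 called 0 as higher and 3 as lower. None of the 45 had an unadjusted p under 0.05 by edgeR, where 2.10% of all genes did. The median was −0.13 against 0.0032 over all genes tested, and 4 of 45 genes, none of them a core subunit, were above 0, where 50.8% of all genes were. It ranged from −0.29 without fasted library 1 to 0.0063 without fasted library 2. Within numbers 1 and 2 the fasted-to-fed log2 ratio was −0.094 and −0.19 for the 20S sum and −0.11 and −0.12 for the 19S sum, and 32 of 45 genes were lower in both pairs, where 31.0% of all genes were, and 2 higher in both.

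Psme4 had a fitted value above 0 in POMC libraries, at 32.2 and 34.0 CPM in fed, 38.2 and 37.5 in fasted and 37.2 and 37.1 in leptin libraries. Its log2 fold change was 0.20 (SE 0.11, FDR 1). Both fasted libraries were above both fed ones, as they were for 12.7% of all genes. Psmb3 was at 25.7 and 20.4 CPM in fed and 23.7 and 16.6 in fasted libraries. Psmc3 was at 69.5 and 59.9 CPM in fed and 64.1 and 49.1 in fasted libraries. Both overlapped between fed and fasted. After leptin, edgeR called 0 genes of the set against fasting (0% of all genes) and none had an unadjusted p under 0.05 (1.13% of all genes), with a median of 0.043. DESeq2 also called 0 of the set, and over all genes it called 9 as higher and 1 as lower. With 2 libraries a state, whose source was not given, these p-values measure only the spread between those libraries.

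The difference between the fasting effects of AgRP and POMC neurons was tested as an interaction over all 17 libraries. No proteasome gene was called by edgeR, where 22 of 13435 genes (0.164%) were, and 14 had an unadjusted p under 0.05 on the higher side, where 5.63% of all genes did. The median difference was 0.45 on the log2 scale against 0.00048 over all genes, and 45 of 46 genes were above 0, where 50.1% of all genes were. The largest were those of Psmb3 (0.84, SE 0.33, FDR 0.435) and Psmc4 (0.82, SE 0.26, FDR 0.282). DESeq2 was not run on the interaction.

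In fed mice AgRP and POMC libraries were set side by side, to compare the set between the neurons. No gene was called by edgeR, where 2.17% of all genes were, and 1 (Psmb8) was higher in AgRP libraries at an unadjusted p under 0.05, where 6.68% of all genes were. The median difference was 0.11 against −0.011 over all genes tested. Psmb8 was at 1.39 and 1.82 CPM in the POMC libraries against 3.20, 3.82 and 3.14 in AgRP ones, with no overlap (log2 difference 1.08, SE 0.22, FDR 0.0764), and DESeq2 called it, as did edgeR with library size in place of TMM. With the 3 states pooled and state as a term in the model, 11 genes were higher in AgRP libraries, where 13.7% of all genes were called in either direction. It has no term for a state effect that differs by line, so differences in the fasted and leptin-treated libraries also enter these values. They are therefore not values of fed mice alone, in which no gene was called. Psme2b had the largest log2 difference (3.65, SE 1.32), and was high in the AgRP libraries of number 1 only. Psmb8 came next at 1.60 (SE 0.17, FDR 3.4e-06), followed by the chaperone Psmg4 (0.74), Psme2 (0.67) and Psmc3 (0.59). The lines, the Cre drivers and any batch cannot be told apart.

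Genes around the proteasome were read from lists of partners and regulators. Pomp, the chaperone that completes the 20S particle, was at 64.7, 74.2 and 55.9 CPM in fed, 92.3, 95.6, 105 and 75.1 in fasted and 78.7, 97.0, 112 and 72.6 in leptin libraries. Fed and fasted libraries did not overlap, and the log2 difference was 0.51 (FDR 0.0902) and, with the number in the model, 0.48 (FDR 0.000358). Of its list of 10 partners outside the symbol rule, 9 were above 0 and 1 passed the FDR on state alone, with 4 in the other fit and a median of 0.13. Of 14 ubiquitin, segregase and shuttle genes 13 were above 0, with 2 past the FDR on state alone, 7 in the other fit and a median of 0.20. All that passed in both lists were higher, where 3.81% of all genes rose on state alone and 15.2% in the other fit.

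Nfe2l1, the regulator of subunit genes, was at 281, 302 and 301 CPM in fed and 283, 275, 296 and 287 in fasted libraries. The groups overlapped and differed by −0.037 on the log2 scale (SE 0.074, FDR 0.861), and its protein is known to be regulated after translation, which these data do not measure. Its relative Nfe2l2 had a log2 fold change of 0.21 (FDR 0.648). Maff, a small Maf protein that pairs with both, was at 5.13, 4.78 and 4.61 CPM in fed, 9.59, 8.21, 8.74 and 7.52 in fasted and 12.0, 10.6, 12.9 and 9.51 in leptin libraries. These groups were separate between fed and the rest, and Maff rose with fasting by 0.82 (FDR 0.00281). It was the one called gene of the 8 in its list, whose median was 0.070.

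Promoters of 42 of the 50 genes were found in the RefSeq table of GRCm38.p6, as 250 bases before and 50 after the start site, and those of Psma8, Psmb1, Psmb2, Psmb7, Psmc3, Psmd3, Psmd7 and Psmg2 were missing. The core of the antioxidant response element, TGANNNNGC, was searched on both strands. It was in 24 of the 42 (57.1%), against 45.4% of the promoters of all 16606 genes. CCAAT was in 15 (35.7%, against 41.8%), a core of the interferon-type elements bound by IRF factors (GAAA, 2 bases of any kind and GAAA again) in 5 (11.9%, against 3.89%), and TTCNNNGAA, the core bound by STAT factors, in 3 (7.14%, against 9.23%). A match is a description of the letters. Windows around the antioxidant element core are shown for the 2 catalytic subunits that have a match before the start site and for Psme4, the gene called after fasting, with the core in capitals, each read on the strand of the match in GRCm38.p6.
Psmb5, chr14:54618028-54618048, minus strand: aagttgTGACGTCGCggcgtt
Psmb6, chr11:70525342-70525362, plus strand: agagagTGACGGAGCgcttta
Psme4, chr11:30771762-30771782, minus strand: ttctggTGACGCTGCagccgc

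The promoter of Psme4 is shown whole because it was the one gene past both thresholds on state alone. It lies at chr11:30771525-30771824 on the plus strand, and the capitals mark its one TGANNNNGC, which is read on the opposite strand.
Psme4: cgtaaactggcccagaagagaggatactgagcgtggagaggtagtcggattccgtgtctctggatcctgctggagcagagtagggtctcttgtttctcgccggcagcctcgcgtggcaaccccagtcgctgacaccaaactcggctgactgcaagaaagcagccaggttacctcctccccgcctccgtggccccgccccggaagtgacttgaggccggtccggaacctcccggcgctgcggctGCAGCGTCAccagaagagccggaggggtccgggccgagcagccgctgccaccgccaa
The promoter of Psmb3, at chr11:97703184-97703483 on the plus strand, is shown for its match to the IRF-type core, in capitals and read on the opposite strand.
Psmb3: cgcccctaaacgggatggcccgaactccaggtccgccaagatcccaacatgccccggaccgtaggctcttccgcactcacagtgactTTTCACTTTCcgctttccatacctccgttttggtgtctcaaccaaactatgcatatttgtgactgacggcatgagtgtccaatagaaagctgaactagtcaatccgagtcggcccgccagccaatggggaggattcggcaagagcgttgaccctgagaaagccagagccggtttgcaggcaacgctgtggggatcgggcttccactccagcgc
The promoter of Psmb8, at chr17:34197945-34198244 on the plus strand, is shown for its TTCNNNGAA match, in capitals.
Psmb8: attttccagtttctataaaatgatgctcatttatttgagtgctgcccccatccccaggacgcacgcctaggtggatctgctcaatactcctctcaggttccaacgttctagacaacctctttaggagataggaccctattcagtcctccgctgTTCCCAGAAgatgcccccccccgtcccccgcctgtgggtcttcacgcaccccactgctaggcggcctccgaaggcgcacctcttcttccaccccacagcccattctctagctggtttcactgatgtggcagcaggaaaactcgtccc

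Chromatin at these promoters was read in ATAC-seq of AgRP nuclei from fed, fasted and leptin-treated NuTRAP mice crossed to AgRP-IRES-Cre (2 libraries each, with 4 mice pooled in each). A peak lay within 500 bases of the start site for 40 of 42 proteasome genes with a promoter, Psme2b and Psmb11 being the exceptions, against 62.6% of all genes. None of the 41 peaks opened with fasting, and 2 were called as lower, where 27.0% of all peaks and 4.85% of promoter peaks were called in either direction. The median log2 fold change was −0.18, against −0.23 for the promoter peaks of all genes. Leptin after fasting changed 0 of them by edgeR or DESeq2, with 0 at an unadjusted p under 0.05, where 3.08% of all peaks and 0.196% of promoter peaks were called by edgeR.

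The 2 peaks called as lower were at Psmd5, a chaperone of the 19S base, and Psma1. The Psmd5 peak (chr2:34870584-34871421) was at 46.6 and 52.3 CPM in fed, 33.2 and 32.1 in fasted and 34.9 and 31.5 in leptin libraries, a log2 fold change of −0.60 (FDR 0.0129). The Psma1 peak (chr7:114275485-114276401) was at 54.1 and 49.1 CPM in fed, 38.7 and 33.3 in fasted and 34.1 and 40.1 in leptin libraries, a change of −0.51 (FDR 0.0308). Both fed libraries were above both fasted ones at both peaks. Neither passed without fasted library 1 or 2, and Psmd5 alone passed with library size in place of TMM or without fed library 1 and Psma1 alone without fed library 2. The RNA of Psmd5 was at 77.8, 81.1 and 81.1 CPM in fed and 85.1, 93.7, 87.8 and 78.7 in fasted libraries, which overlapped, while that of Psma1 was higher in fasting. The Psme4 peak was at 26.2 and 33.0 CPM in fed and 30.3 and 23.0 in fasted libraries (−0.17, SE 0.21). The Psmb3 peak was at 59.2 and 68.3 CPM in fed and 51.1 and 61.0 in fasted libraries (−0.19, SE 0.17), and both peaks overlapped between the states.

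AgRP nuclei of fed mice were also compared with the GFP-negative nuclei sorted from the same pools (2 libraries each). Of 40 promoter peaks 5 were lower in the AgRP nuclei and none higher, where 39.6% of all peaks and 14.6% of promoter peaks were called in either direction. These were the peaks at Psmd9 (−0.77), Psmc3ip (−0.76), Psmd11 (−0.70), Psmd5 (−0.52) and Psmc1 (−0.50, log2 fold changes). The median over the 40 peaks was −0.15, against −0.19 for promoter peaks of all genes. With library size in place of TMM 2 were called, and without negative library 2 there were 3.

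CUT&RUN peak lists were read at the same start sites. The IRF3-2D line, labelled an IRF3 overexpression model, carries a phospho-mimetic and constitutively active IRF3 allele, per the paper. In AgRP nuclei of fed male mice of this line, 15 of 42 proteasome genes had an IRF3 peak within 500 bases of the start site. That is 35.7%, against 20.9% of all genes. Among genes with an ATAC-seq peak there, the shares were 37.5% and 33.0%. They included Psmb3 and Psmb6 but not Psme4. CTCF, the insulator protein, was measured in a separate AgRP sample, whose label does not name the IRF3-2D line. It had a peak at 20 of 42 (47.6%), against 26% of all genes, and at 50.0% against 40.9% among genes with an ATAC-seq peak. Each factor was measured in 1 sample, so there is no replicate check, and IgG was not analysed here.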

How the data were processed

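RNA was counted in 11 AgRP and 6 POMC TRAP libraries. Per the paper's methods, the authors aligned rRNA-depleted, unstranded reads to mm10 with HISAT2 and made the deposited raw gene counts with featureCounts, using gene models changed so that fewer transcripts overlap. The deposited ATAC-seq values are raw counts per merged MACS2 peak, made after Bowtie2 alignment and removal of duplicates. The IRF3 CUT&RUN list, as deposited, gives the total and maximum signal of each SEACR peak, and the CTCF list gives the fold enrichment (a ratio) from the authors' peak caller. Their peak settings and build were not given in the sources used here, and their coordinates were read as mm10. The authors' tables of log2 CPM were not used, and the 12 whole arcuate RNA samples were not analysed here.

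Features with a mean over 1 CPM were scaled by TMM and fitted by edgeR 4.0.16 (R 4.3.3) with the quasi-likelihood test, the 3 states of each neuron in 1 model with state alone, as in the study's methods. FDR is the Benjamini-Hochberg value over all features tested, called means past both an FDR of 0.05 and a log2 fold change of 0.5 in either direction, and SEs are those implied by the F statistic. CPM values are TMM-scaled. Each AgRP library is a separate pool, and p-values measure the spread between libraries. The depth of 8263234 to 17190963 counts per ATAC-seq library of the 3 states, and of 25581041 or more per RNA library, limits the precision of low genes such as Psmb9. The code was tested on simulated data.

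Same-numbered AgRP RNA libraries deviated from their state means together (correlations 0.565 to 0.838, median 0.72, 10 pairs, against a median of −0.243 for the other pairs), so the number was taken to pair them. The pairing comes from the replicate numbers in the sample titles. Alternatives were the replicate block, other scalings, no filter, FDR alone, DESeq2 1.42.0, edgeR's legacy robust fit and leaving out each library. Leaving out libraries of number 1 or 4, adding Psme2b to Psme2, and the block at FDR alone were chosen after seeing the data. The members, gene lists and motifs were chosen with earlier results of these data known. Named genes are those called in an RNA comparison, the 3 largest rises and falls in fasting AgRP neurons, the catalytic and inducible subunits, the activators, and, of the lists, those called plus Nfe2l1, Nfe2l2 and Pomp; Psma1, Psma4, Psmd5 and Psmf1 were added after their values were seen.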

Additional observations from a re-analysis of the deposited data

Results flagged for a closer look

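In groups of 4 libraries, a library was singled out where its gap to the nearest other exceeded Dixon's 95% critical value for the group's range, which chance gives in about 1 of 20 groups. The 50 genes read here were the 46 tested proteasome genes with Pomp, Nfe2l1, Nfe2l2 and Maff. This held for 4 of them in the fasted and 2 in the leptin-treated AgRP libraries. Psme2b stood apart in library 1 of both groups, at 10.26 CPM in fasting and 9.323 CPM after leptin. Library 4 stood apart in the other cases. In fasting the 20S chaperones Psmg1, at 13.59 CPM, and Psmg2, at 13.97 CPM, were lowest there, and Nfe2l2 was highest there at 5.651 CPM. After leptin the lid gene Psmd6 was lowest there at 67.65 CPM. Library 4 was also the lowest of its group for 38 of 46 proteasome genes in fasting and 26 of 46 after leptin.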

How the results depend on the processing

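The count of proteasome genes called after fasting in AgRP neurons, 1 in the reported fit, was 0 with library size in place of TMM, 3 at FDR alone, 3 with DESeq2 (Psmc4, Psme4, Psmb3), 3 with the replicate block and 30 with the replicate block at FDR alone. It was 0 without the 3 libraries of number 1 and 3 without those of number 4, and the blocked count at FDR alone was then 24 and 31. Calls over all genes changed in these fits as well, as given above for all but DESeq2, which called 446 as higher and 214 as lower. Leaving out 1 library gave 1 to 4 calls (4 without fasted library 4, 2 without fed library 3), and a median between 0.24 and 0.41. Over all genes, 430 were called as higher and 249 as lower without fasted library 4, and 283 and 78 without fed library 3. For leptin against fasting the count of 0 became 1 with the replicate block at FDR alone, with or without number 4 but 0 without number 1, stayed 0 without any 1 library, and the median lay between −0.092 and 0.058. For leptin against fed the count of 0 became 4 at FDR alone, 2 with DESeq2, 2 with the replicate block, 35 with the replicate block at FDR alone, and 0 to 5 without 1 library. DESeq2 called 556 of all genes as higher and 312 as lower in that comparison. Between AgRP and POMC in fed mice the count of 0 became 1 with library size, 1 with DESeq2 and 11 over all states, and was 0 without any 1 library. Over all genes, library size gave 201 higher and 155 lower calls and DESeq2 326 and 329, where the reported fit gave 143 and 149. No paired analysis was possible there because the groups share fewer than 2 numbers. The POMC fasting median, −0.13, lay between −0.29 and 0.0063 without 1 library.

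In POMC libraries 2 numbers share only a number, with correlations of 0.76 to 0.793, and the replicate block called 0 proteasome genes. For fasted against fed, 10 were lower and 2 higher at an unadjusted p under 0.05, where 7.39% and 7.35% of all genes were. Of the ATAC-seq promoter peaks, 2 were called after fasting, 1 with library size and 0 to 1 without 1 library, and 5 between sorted nuclei, 2 with library size and 3 to 5 without 1 library, and the replicate block left these counts as they were. The block changed no other call where it was fitted, and the interaction was not fitted with it. The cause of these changes was not tested. Groups of 2 libraries limit what could be detected.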
